A study of Mus musculus with 12 samples.

Results

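The metabotropic glutamate receptors are the G protein-coupled receptors of the excitatory transmitter glutamate, and 6 of their genes, Grm2, Grm3, Grm4, Grm5, Grm7 and Grm8, were followed by symbol through 52636 genes in the hippocampus of 12 mice. All 6 had a mean of at least 1 TPM (a transcript abundance corrected for length and expressed per library total) in both sexes. The mice were wild-type C57BL6/J animals aged 18 weeks, with no engineered allele in any group per the labels. In each sex, 3 had a high and 3 a low extinction level, extinction being the waning of a learned fear once its trigger stops being followed by harm. The study compared the hippocampal transcripts of mice that differed in how readily they extinguish fear. Each title names another mouse, so replicates include animal-to-animal spread. A positive change means a higher value at low extinction.

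Metabotropic receptors fall into groups by sequence and signalling. Group I, here Grm5, couples to Gq and phospholipase C, sits mainly on postsynaptic membranes beside Homer scaffolds and drives a form of long-term depression. Group II, Grm2 and Grm3, and group III, Grm4, Grm7 and Grm8, couple to Gi and Go, lower cyclic AMP and mostly restrain transmitter release from presynaptic terminals, and Grm3 is also expressed by astrocytes.

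The libraries held 18170 to 19062 genes at 1 TPM or more. Ribosomal RNA-derived genes took between 8.39% and 24.8% of all TPM, the most in replicate 1 of the high-extinction males. Markers of the dentate gyrus, CA1, CA2 and CA3 were present in every library, with lowest summed levels of 189.7 TPM for 6 dentate granule genes and 230.3 TPM for 5 CA1 genes. Of 4 cerebellar markers, Car8 averaged 2.56 TPM, Pcp2 0.799 TPM, Cbln3 0.293 TPM and Gabra6 0.0886 TPM, the last at 0 in 6 libraries. In bulk tissue, fewer cells of a type and less RNA per cell cannot be told apart.

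Grm5 was the most abundant of the 6 receptors, and Grm8 the least. The mean over all 12 libraries was 113.8 TPM for Grm5, 41.4 TPM for Grm7, 36.7 TPM for Grm3, 24.5 TPM for Grm2, 7.83 TPM for Grm4 and 5.04 TPM for Grm8. Grm5 alone made up 49.6% ± 2.90 (SD, n = 12) of the summed TPM of the 6 genes. Group II made up 26.8% ± 2.43 and group III 23.6% ± 1.85 (SD, n = 12 each). Grm5 exceeded Grm7 in 12 of 12 libraries, by 2.37-fold to 3.18-fold, and the ranges of the 2 genes did not overlap. Grm3 exceeded Grm2 and Grm2 exceeded Grm4 in 12 of 12 libraries, again without overlap of their ranges. Grm7 and Grm3 were not separated by their spread, since Grm7 was the higher in 10 of 12 libraries and the ratio ran from 0.918 to 1.31. Grm4 exceeded Grm8 in 12 of 12 libraries, but the smallest ratio was 1.01 and the ranges overlapped. The group III gene Grm6, known from retinal bipolar cells, was listed at 0 TPM in all 12 libraries. The authors' deposited DESeq2 table of females still held a log2 fold change for Grm6, 0.61 (SE 2.59), without an adjusted p.

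**Figure D1:**
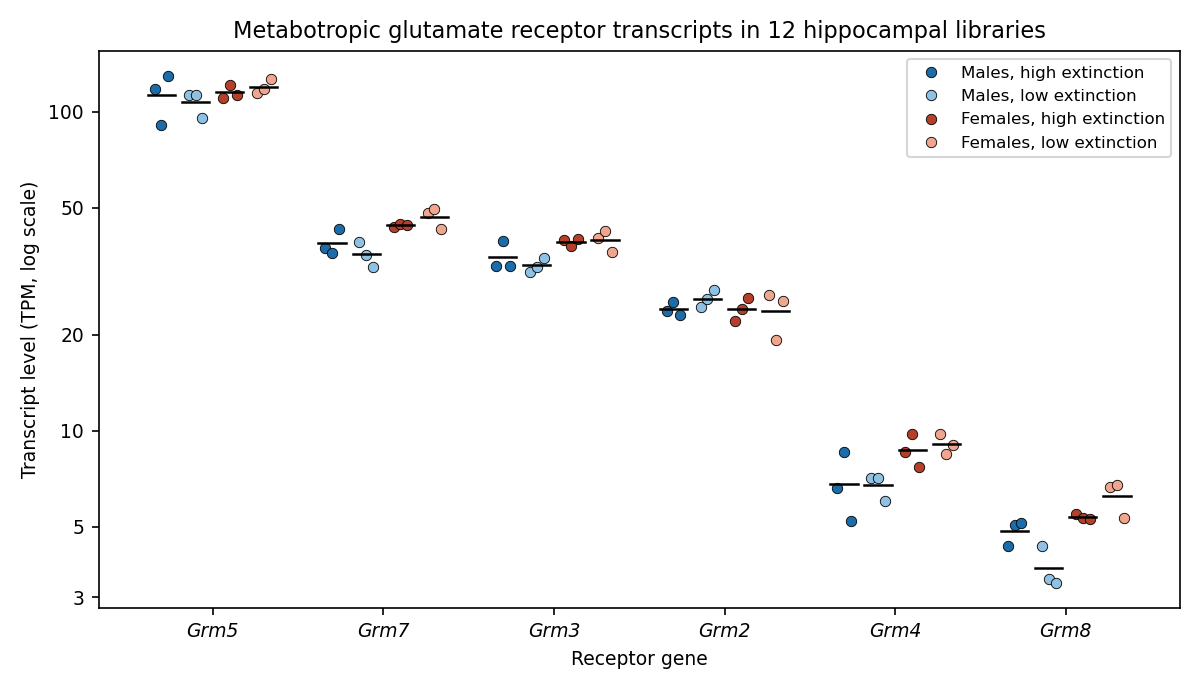
TPM of each receptor gene on a log axis, with 1 point per library, coloured by sex and extinction level, and a bar at the mean of each group of 3. The order from Grm5 (90.98 to 129.5 TPM) down to Grm8 (3.34 to 6.74 TPM) holds in every group, and only Grm8 in males has low-extinction points all below the high-extinction points.

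None of the 6 receptors differed between low and high extinction past the adjusted threshold of 0.05 in either sex, by limma on log2(TPM + 1) or in the authors' deposited DESeq2 tables. Across all genes limma called 0% of 18303 in males and 0.0107% of 18668 in females, and the authors' deposited tables called 0.504% of 20050 genes in males and 0.857% of 15644 in females. At an unadjusted p under 0.05, limma counted 1 of the 6 receptors in males, Grm8, and 0 in females, beside 6.29% of all genes tested in males (3.93% lower at low extinction) and 8.83% in females. In the authors' deposited tables the same counts were 1, again Grm8 in males, and 0, beside 7.61% and 9.95% of all genes. The median log2 change of the 6 receptors was -0.07 in males and 0.06 in females on log2(TPM + 1), beside -0.02 and 0.06 over all genes tested. Averaged over the sexes, the limma changes ran from -0.07 for Grm8 to 0.04 for Grm2, with 95% interval bounds between -0.25 and 0.26. On this average limma called 0 of the 6 and 0% of all genes, with 0 of the 6 and 7.7% of all genes at an unadjusted p under 0.05, and the smallest limma adjusted p of a receptor was 0.917. Averaging the authors' deposited fold changes of both sexes called 0 of the 6 and 1.05% of 15642 genes, with 0 of the 6 and 10.2% of all at an unadjusted p under 0.05.

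**Figure D2:**
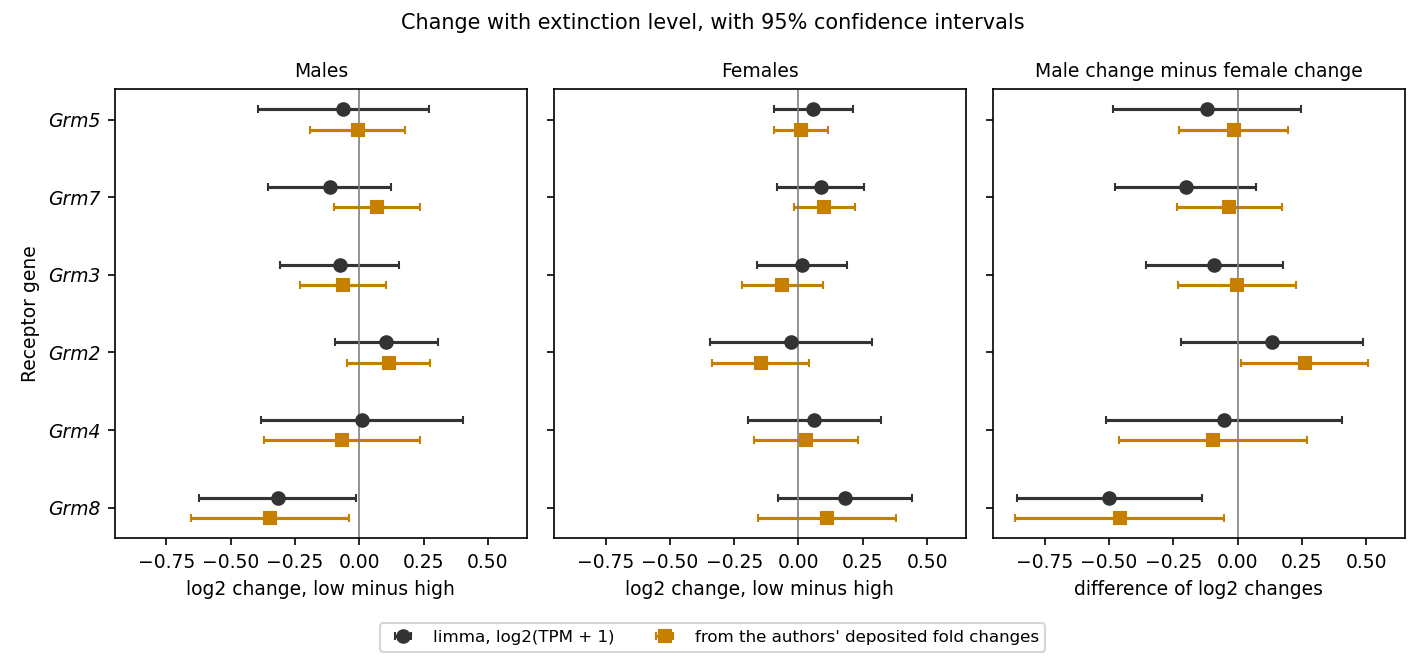
log2 change from high to low extinction in males and in females, and the male change minus the female change, for each receptor gene, with 95% confidence intervals. Circles are limma on log2(TPM + 1) and squares come from the authors' deposited DESeq2 fold changes. The intervals of Grm8 in males and of its difference between the sexes lie below 0 by both, that of Grm2 between the sexes lies above 0 by the authors' fold changes alone, and all others span 0.

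Grm5, the group I receptor among the 6, measured 117.9, 90.98 and 129.5 TPM in males of high extinction, against 112.9, 113.1 and 95.6 TPM in males of low extinction. Females of high extinction measured 110.9, 121.6 and 113.0 TPM, against 114.8, 118.1 and 126.8 TPM in females of low extinction. The groups overlapped in both sexes, and the 2 extremes among males, replicates 2 and 3, came from the same high-extinction group. The limma change was -0.06 in males (95% interval -0.39 to 0.27) and 0.06 in females (-0.10 to 0.21). In the authors' deposited tables, Grm5 rests on a mean of 15915 normalized counts in males and 16658 in females, the most of the 6 receptors. The log2 fold changes there were -0.0064 (SE 0.09) and 0.0092 (SE 0.05), so a change beyond 0.19 in males or 0.12 in females lies outside their 95% intervals. The gene spans chromosome 7, plus strand, from 87584168 to 88134907 in GRCm38, and 5 same-strand annotated genes lie within that span, the highest of them Gm44846 at 6.62 TPM.

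Grm2, a group II receptor known from the terminals of dentate granule cells, measured 23.8, 25.3 and 23.0 TPM in males of high extinction, against 24.4, 25.9 and 27.5 TPM in males of low extinction. Females of high extinction had 22.2, 24.0 and 26.1 TPM of Grm2, against 26.7, 19.2 and 25.5 TPM in females of low extinction. The groups overlapped in both sexes, and replicate 2 of the low-extinction females was the lowest of all 12 libraries. The authors' deposited tables put Grm2 higher at low extinction in males by 0.11 (SE 0.08) and lower in females by 0.15 (SE 0.10) on the log2 scale, with DESeq2 adjusted p of 0.912 and 0.655. Subtracting these fold changes gave a difference between the sexes of 0.26 (SE 0.13, unadjusted p = 0.0378), with an adjusted p of 0.685 over the 15642 genes with DESeq2 values in both tables. On TPM the same difference was 0.13 (limma adjusted p = 0.855, two-sided exact permutation p = 0.435). Of the 6 dentate granule markers, 6 had a positive change in males (median log2 change 0.14) and 4 in females (0.05), and their part in the Grm2 values was not tested. Grm2 spans chromosome 9, minus strand, from 106643095 to 106656082, overlapped on the opposite strand by Gm28111, which averaged 0.315 TPM.

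Grm3, the group II receptor shared by neurons and astrocytes, was the steadiest of the 6, with a pooled within-group SD of 0.10 on log2(TPM + 1). Males of high extinction had 32.8, 39.3 and 32.8 TPM of it, against 31.5, 32.7 and 34.8 TPM in males of low extinction. In females the values were 39.5, 38.0 and 39.8 TPM for high extinction, against 40.1, 42.3 and 36.3 TPM for low extinction. The groups overlapped in both sexes, and the single high value among the males belonged to replicate 2 of high extinction. The limma change was -0.08 in males (95% interval -0.31 to 0.15) and 0.01 in females (-0.16 to 0.19). The summed level of 7 astrocyte markers also overlapped in males, at 517 to 654 TPM at high and 573 to 598 TPM at low extinction. In females the astrocyte sums did not overlap, at 606.5 to 617.8 TPM for high and 618.3 to 663.8 TPM for low extinction, with 6 of 7 markers positive. The nearest sums of the 2 groups were thus 617.8 and 618.3 TPM. Over all genes tested in females, 16.3% had groups that did not overlap, and 12892 of 18668 had a positive change. The part of the astrocyte markers in the Grm3 values was not tested. Grm3 spans chromosome 5, minus strand, from 9485541 to 9725170.

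Among the group III receptors, Grm7 encodes a low-affinity receptor at the presynaptic active zone. It measured 37.5, 36.1 and 42.9 TPM in males of high extinction, against 39.0, 35.6 and 32.7 TPM in males of low extinction. In females it measured 43.4, 44.6 and 44.3 TPM for high extinction, against 48.3, 49.7 and 42.9 TPM for low extinction. Groups overlapped in both sexes, and in females replicate 3 of low extinction lay under all high-extinction values while the other 2 lay above them. In males the 2 measures differed in sign, with a limma change of -0.12 on log2(TPM + 1) (SE 0.10) and a log2 fold change of 0.07 (SE 0.09) in the authors' deposited table. In females both were positive, 0.09 (SE 0.07) by limma and 0.10 (SE 0.06) in the authors' deposited table, with adjusted p of 0.731 and 0.607. Grm7 has the longest span of the 6, chromosome 6, plus strand, from 110645581 to 111567230, and it overlaps the antisense gene Gm20387, which averaged 2.34 TPM. Without knowing whether counting used strand, reads of this pair cannot be told apart.

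Grm4, a presynaptic receptor best known from cerebellar granule cells, measured 6.63, 8.59 and 5.20 TPM in males of high extinction, against 7.13, 7.09 and 6.03 TPM in males of low extinction. The female values were 8.59, 9.79 and 7.67 TPM for high extinction, against 9.75, 8.46 and 9.01 TPM for low extinction. It was the most variable of the 6 within groups, with a pooled SD of 0.19 on log2(TPM + 1), and its groups overlapped in both sexes. The highest and the lowest male library both belonged to high extinction. The limma change was 0.0097 in males (95% interval -0.38 to 0.40) and 0.06 in females (-0.20 to 0.32), so changes within those intervals are compatible with the values. Grm4 spans chromosome 17, minus strand, from 27422387 to 27521403.

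Grm8, a group III autoreceptor of presynaptic terminals, was the 1 receptor of 6 whose groups did not overlap in a sex, namely in males. Males of high extinction measured 4.35, 5.05 and 5.13 TPM, against 4.35, 3.42 and 3.34 TPM in males of low extinction. The low-extinction males were thus lower in 3 of 3 libraries, although replicate 1 of each group differed only in the third decimal (4.3523 and 4.34995 TPM). Such separation in either direction held for 11.5% of the 18303 genes tested in males, with the low-extinction group lower in 7.28%. The group means were 4.84 ± 0.428 TPM for high and 3.70 ± 0.561 TPM for low extinction (SD, n = 3 males each). The limma change was -0.32 (95% interval -0.62 to -0.01, unadjusted p = 0.0438, limma adjusted p = 0.775), and the two-sided exact permutation p was 0.1, the smallest that 3 against 3 can give. The authors' deposited table gave Grm8 a 1.27-fold lower level at low extinction in males (log2 SE 0.16, unadjusted p = 0.0266, DESeq2 adjusted p = 0.529), on a mean of 320 normalized counts, the fewest of the 6 receptors.

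In females 2 of 3 low-extinction mice had more Grm8 than any high-extinction mouse. High-extinction females measured 5.48, 5.34 and 5.28 TPM, against 6.67, 6.74 and 5.32 TPM in low-extinction females. Replicate 3 of low extinction fell among the high-extinction values, so the groups overlapped, as did those of the other 5 receptors in females, where 16.3% of all genes had groups that did not. The limma change was 0.18 (95% interval -0.08 to 0.44, limma adjusted p = 0.646), and the authors' deposited table gave 0.11 (SE 0.14, DESeq2 adjusted p = 0.883). Without replicate 3 of low extinction the limma change was 0.28 (unadjusted p = 0.0300, limma adjusted p = 0.701), and with quantile normalisation it was 0.084.

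The male change of Grm8 minus its female change was -0.50 on log2(TPM + 1), with a 95% interval of -0.86 to -0.14. The unadjusted limma p was 0.0110 and the two-sided exact permutation p 0.025 over 400 assignments within sex, where 7.92% of all 18499 genes (7.02% with a negative difference) and 7.45% reached p under 0.05. After adjustment over all genes the difference did not pass (limma adjusted p = 0.536, and adjusted p = 0.545 for the exact permutation), and limma called 0.00541% and the exact test 0% of all genes. With 400 assignments the exact p has a floor. A gene could pass adjustment over 18499 genes only if very many reached that floor, so the 0% decides nothing. The Grm8 difference was -0.46 (SE 0.21) from the authors' deposited fold changes, with an adjusted p of 0.624 over 15642 genes. By that measure 0 of the 6 receptors and 0.409% of all genes passed after adjustment, and 2 of the 6, Grm8 and Grm2, and 6.81% of all genes had an unadjusted p under 0.05. The other 5 receptors had differences between the sexes from -0.20 for Grm7 to 0.13 for Grm2, with limma adjusted p from 0.724 to 0.966. The median difference over all genes tested was -0.09 on log2(TPM + 1). The Grm7 value was -0.03 from the authors' deposited fold changes and -0.11 with median-of-ratios scaling. As a share of the summed TPM of the 6 receptors, which does not depend on the scale of a library, Grm8 took 2.19% ± 0.258 at high and 1.74% ± 0.216 at low extinction in males. In females its share was 2.27% ± 0.0990 and 2.54% ± 0.329 (SD, n = 3 each). Each sex has its own deposited TPM table, so a difference between the sexes and one between the tables cannot be told apart.

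Median changes of markers of tissue bordering the hippocampus had the same sign as those of Grm8, negative in males and positive in females. The median of all genes tested had those signs too (-0.02 and 0.06), as had those of astrocyte, oligodendrocyte and endothelial markers. Markers of dentate, CA1, CA2 and CA3 cells, interneurons, oligodendrocyte precursors, microglia and striatum did not have both signs. Of all genes tested, 7894 of 18303 in males and 12892 of 18668 in females had a positive change. Summed over 7 thalamus and habenula markers, the level was 87.3 to 109.6 TPM at high and 67.9 to 100.4 TPM at low extinction in males, where 1 of 7 markers had a positive change. In females it was 86.3 to 108.1 TPM at high and 129.5 to 143.4 TPM at low extinction, and 7 of 7 changes were positive. The 4 ependymal markers summed to 30.7 to 38.7 TPM at high and 11.1 to 20.2 TPM at low extinction in males, and to 13.9 to 33.4 and 23.4 to 36.0 TPM in females. The 6 meningeal fibroblast markers summed to 45.6 to 78.9 and 35.9 to 65.8 TPM in males, and to 59.8 to 67.5 and 78.2 to 95.8 TPM in females, at high and low extinction. Among 7 choroid plexus markers, whose sum ranged from 23.7 to 3481 TPM over the libraries, 0 had a positive change in males and 6 in females. The authors' deposited tables called 3 of the 4 ependymal markers and 1 of the 6 meningeal markers lower in males. In females they called 3 meningeal markers, 1 of the 7 thalamic markers and 1 of 4 CA2 markers higher, and 1 of 9 interneuron markers lower. Of all genes there, 0.504% were called in males and 0.857% in females, in either direction. The 4 neocortical markers overlapped in males but lay at 76.5 to 91.8 TPM at high and 94.3 to 98.6 TPM at low extinction in females. Separation was not limited to bordering tissue. The 4 CA2 markers, of a hippocampal subfield, overlapped in males but summed to 258.7 to 275.3 TPM at high and 291.2 to 316.65 TPM at low extinction in females. Of all genes tested, 11.5% in males and 16.3% in females had groups that did not overlap. None of these markers was at 0 in any library, and their part in the Grm8 values was not tested.

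The Grm8 gene spans chromosome 6, minus strand, from 27275119 to 28135178 in GRCm38. RefSeq lists 3 transcription start windows for it, each from 250 bases before to 50 bases after a start. They are described because Grm8 is the receptor whose groups separated in a sex, and gene-level TPM does not say which start was used. The windows were searched on both strands for the CRE (TGACGTCA) of the CREB factors, its core (TGACG), the AP-1 site (TGANTCA) of Fos and Jun factors, the EGR site (GCGNGGGCG) and the E-box (CANNTG). The CRE core is contained in the full CRE. The windows with a CRE core, AP-1 or EGR match are shown from 5′ to 3′ on the gene's strand, with those matches in capitals.
Grm8 window chr6:28135097-28135396 (GRCm38.p6, minus strand): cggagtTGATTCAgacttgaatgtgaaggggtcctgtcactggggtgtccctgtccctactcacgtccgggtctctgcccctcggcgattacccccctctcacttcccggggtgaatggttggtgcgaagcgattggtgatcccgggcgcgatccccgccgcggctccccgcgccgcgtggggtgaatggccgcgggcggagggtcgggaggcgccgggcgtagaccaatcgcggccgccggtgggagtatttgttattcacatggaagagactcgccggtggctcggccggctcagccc
Grm8 window chr6:28134372-28134671 (GRCm38.p6, minus strand): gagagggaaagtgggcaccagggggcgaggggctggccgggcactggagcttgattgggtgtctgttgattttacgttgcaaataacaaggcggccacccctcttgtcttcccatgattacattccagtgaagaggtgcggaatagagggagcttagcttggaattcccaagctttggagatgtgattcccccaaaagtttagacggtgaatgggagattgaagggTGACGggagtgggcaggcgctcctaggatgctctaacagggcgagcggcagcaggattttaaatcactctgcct
The first window held 1 AP-1 match, 1 E-box and 33 CG dinucleotides, and the second 1 CRE core and 10 CG dinucleotides. The third held 1 E-box and none of the other 4 motifs. Among all 32851 RefSeq windows of this length, 7.81% held an AP-1 match, 20.8% a CRE core, 72.3% an E-box, 5.55% an EGR match and 1.79% a full CRE. Windows were found for 4 of the 6 receptors, Grm2, Grm3, Grm7 and Grm8, and among the 4 windows of Grm2, Grm3 and Grm7 only that of Grm3 held a match, to the EGR site. A match describes letters and is no evidence that a factor binds.

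Within single libraries the receptors deviated in both directions from the mean of their sex. Replicate 3 of the high-extinction males had the highest Grm5, Grm7 and Grm8 and the lowest Grm2 and Grm4 of its sex. Replicate 2 of the same group had the lowest Grm5 and the highest Grm3 and Grm4. In females, replicate 2 of low extinction combined the highest Grm3, Grm7 and Grm8 with the lowest Grm2. The sum of the 6 genes ran from 200.02 to 246 TPM over all 12 libraries.

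**Figure D3:**
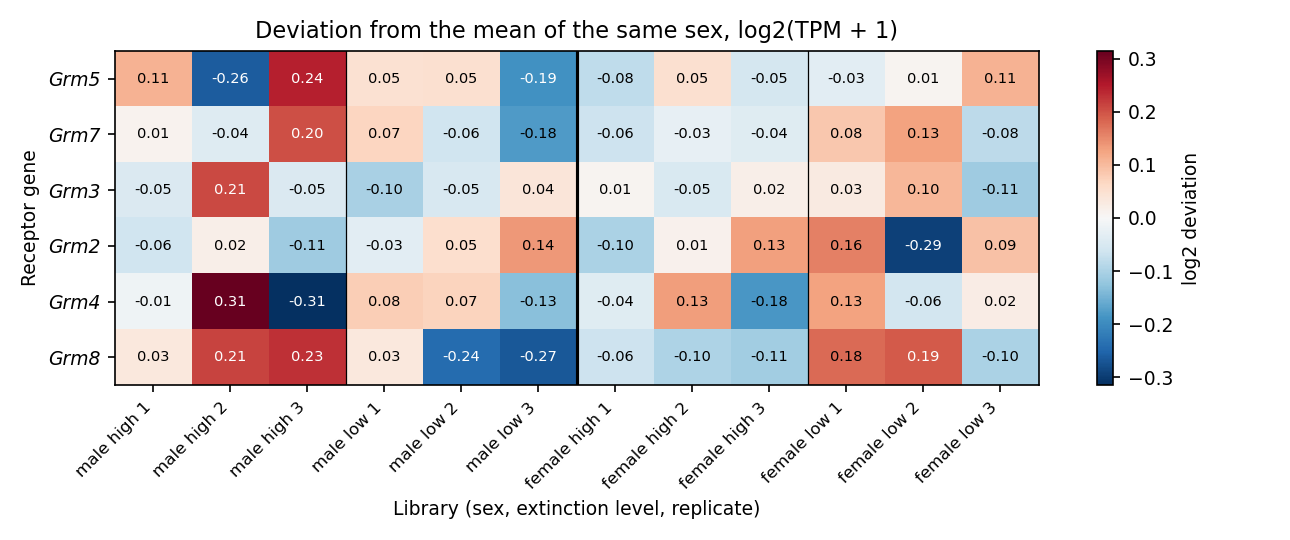
Deviation of log2(TPM + 1) from the mean of the same sex, for each receptor gene and each of 12 libraries. Grm7 and Grm8 take like colours in most libraries, while Grm5 and Grm3 often take opposite ones. Grm8 is positive in 3 of 3 high-extinction males, but also in replicate 1 of the low-extinction males (0.0338, beside 0.0344 in replicate 1 of high extinction).

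Likeness of pattern was measured as Pearson's r of log2(TPM + 1) after subtracting the mean of each sex, over the same 12 libraries, and is given as a description because all genes of a library share its composition. Within the family, the most alike pair was Grm7 and Grm8 (0.81), followed by Grm5 and Grm7 (0.58), and the most opposed was Grm3 and Grm5 (-0.75). Among 13137 other genes at 5 TPM or more, Grm5 was most like Garem1 (0.94), Zc3h12b (0.93) and Herc2 (0.93). Grm7 was most like Fam91a1 (0.94), Plcxd3 (0.91) and Ctbp2 (0.90). Grm3 was most like Megf10 (0.93), a phagocytic receptor gene of astrocytes, Bmp2k (0.93) and Hipk2 (0.92). Grm4 was most like Slc7a10 (0.90), an amino acid transporter gene of astrocytes, Gna13 (0.89) and Tekt5 (0.89). Grm2 was most like Gm13077 (0.88), Tubgcp6 (0.88) and Ppp1r14b (0.88). Grm8 was most like Gm6652 (0.90), Hs6st2 (0.88), a heparan sulfate sulfotransferase gene, and Cnih4 (0.88).

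Genes that act around the receptors were followed in 8 lists with 81 genes, of which 80 had an adjusted p in both of the authors' deposited tables. There, 0 of 80 were called in males and 4 in females, Plcb4 and Slc7a11 higher and Elfn2 and Arc lower at low extinction, beside 0.504% and 0.857% of all genes. On log2(TPM + 1), limma called 0 of the 80 in either sex. At an unadjusted p under 0.05 it counted 2 in males, both lower, and 7 in females, 6 of them higher at low extinction. Over all genes the same threshold was reached by 6.29% in males, 719 of 1151 of them lower, and by 8.83% in females, 1470 of 1648 of them higher, so neither count is a result about the listed genes.

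**Figure D4:**
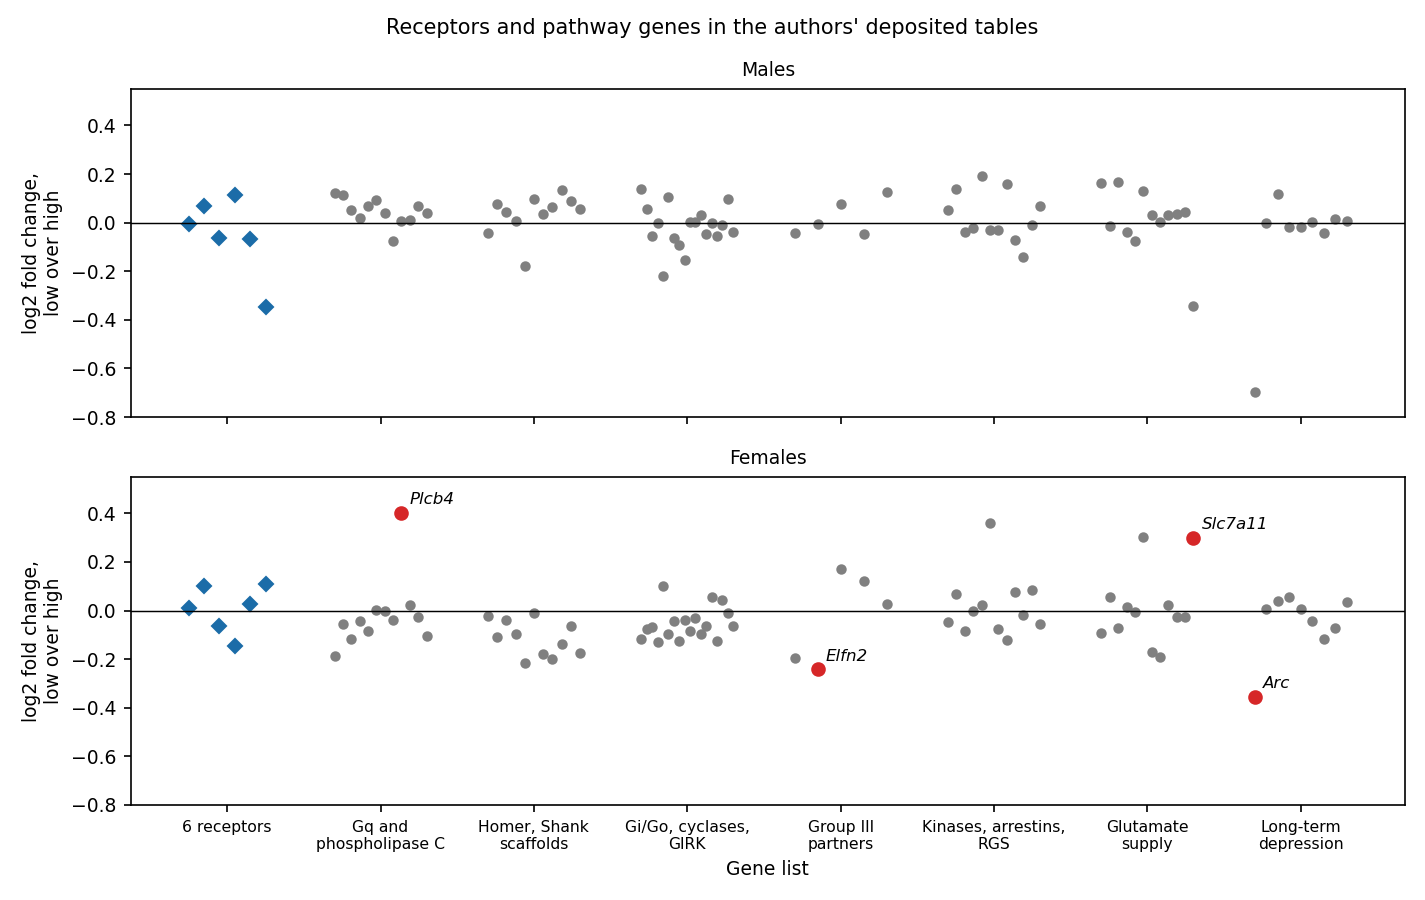
log2 fold change from high to low extinction in the authors' deposited DESeq2 tables, in males and in females, with 1 point per gene for the 6 receptors (diamonds, in the order of their levels) and for 7 lists of pathway genes. Red points passed an adjusted p of 0.05, which 4 genes did in females and 0 in males, and no receptor is among them.

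Downstream of group I, Plcb4, a phospholipase C isoform activated by Gq, was 1.32-fold higher at low extinction in females in the authors' deposited table (DESeq2 adjusted p = 0.0268, log2 SE 0.11) and lay at 0.0081 (SE 0.10) in males. High-extinction females had 14.9 ± 1.89 TPM of Plcb4 and low-extinction females 19.1 ± 1.02 TPM (SD, n = 3 each). The thalamus and habenula markers given above separated the same female groups, as did the summed CA2, neocortical, meningeal and astrocyte markers. Of all genes tested in females, 16.3% had groups that did not overlap. The part of any of these markers in the Plcb4 value was not tested. In the same list of 12, Itpr1, the calcium channel opened by inositol trisphosphate, had an average limma change of -0.31 (limma adjusted p = 0.568), but the authors' deposited tables gave 0.07 in males and -0.08 in females. Homer1, the scaffold that ties group I receptors to the postsynaptic density, had log2 fold changes of -0.18 and -0.22 in males and females in the authors' deposited tables, with DESeq2 adjusted p of 0.656 and 0.201. In the list of 11 scaffold genes, 9 had a positive fold change in males and 0 in females in the authors' deposited tables, with medians of 0.06 and -0.11. On log2(TPM + 1) the split was not seen, with 7 of the 11 positive in males and 5 in females, and medians of 0.02 and -0.02. Over all genes with an adjusted p in the authors' deposited tables, 9706 of 20050 were positive in males and 7008 of 15644 in females, with medians of -0.0051 and -0.01. The scaffold gene Cyth2 had a limma change of -0.30 in males (limma adjusted p = 0.857), beside -0.04 in the authors' deposited table. For long-term depression, Arc, the activity-induced gene whose product removes AMPA receptors, was 1.28-fold lower at low extinction in females in the authors' deposited table (DESeq2 adjusted p = 0.00387, log2 SE 0.08). In males the log2 fold change of Arc was -0.70 (SE 0.43, DESeq2 adjusted p = 0.825). Eef2k had an average limma change of 0.13 and was called in no test.

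Downstream of groups II and III, 0 of 18 genes for Gi and Go proteins, adenylyl cyclases and GIRK channels were called in either sex. The largest average limma changes there were -0.23 for Gnb5 (limma adjusted p = 0.668) and 0.11 for Gng2. Among 5 binding partners of group III receptors, Elfn2, a transsynaptic protein that binds these receptors, was 1.18-fold lower at low extinction in females in the authors' deposited table (DESeq2 adjusted p = 0.0152, log2 SE 0.06). High-extinction females had 66.8 ± 0.818 TPM of Elfn2 and low-extinction females 59.6 ± 5.87 TPM, and its log2 fold change in males was -0.0071 (SE 0.07). Its paralog Elfn1 had -0.20 in females in the authors' deposited table (DESeq2 adjusted p = 0.447). Among 12 kinases, arrestins and RGS proteins that switch receptors off, 0 were called, and Grk5 and Arrb1 had the largest average limma changes, 0.16 each.

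On the side of glutamate supply, Slc7a11, the cystine and glutamate exchanger that releases glutamate from astrocytes, was 1.23-fold higher at low extinction in females in the authors' deposited table (DESeq2 adjusted p = 0.0228, log2 SE 0.08). High-extinction females had 19.0 ± 2.21 TPM of Slc7a11 and low-extinction females 24.3 ± 1.35 TPM (SD, n = 3 each). The astrocyte sums given above separated the same female groups, the nearest at 617.8 and 618.3 TPM. So did the summed thalamic, CA2, neocortical and meningeal markers. The median change of the meningeal markers had the sign of Slc7a11 in both sexes (-0.44 in males and 0.54 in females). So had those of all genes tested (-0.02 and 0.06) and of thalamic, ependymal, choroid plexus, neocortical, endothelial, oligodendrocyte and astrocyte markers. Those of the hippocampal subfield, interneuron, oligodendrocyte precursor, microglia and striatum markers did not have both signs. The part of any of these in the Slc7a11 values was not tested. In males the authors' deposited table gave Slc7a11 -0.34 (SE 0.24, DESeq2 adjusted p = 0.895), and on TPM the male means were 18.7 ± 1.52 for high and 14.4 ± 3.35 for low extinction. Slc17a7, the vesicular glutamate transporter of hippocampal pyramidal and granule cells, had an average limma change of -0.38 (limma adjusted p = 0.550), and the authors' deposited tables gave 0.03 in males and -0.17 in females. Slc17a6, its counterpart in thalamic neurons and also 1 of the 7 thalamus and habenula markers, had 0.26 (limma adjusted p = 0.866). The remaining genes of this list of 12 were called in neither table.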

How the data were processed

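Hippocampal RNA from 12 mice was enriched for polyA RNA and sequenced, per the labels' protocols. The tools named by the submitters' processing notes are TopHat2, Bowtie2, HTSeq, StringTie 1.3.3b and DESeq2, with GRCm38.p5 and mm10 as builds and no roles stated. No source used here states the use of strand. One TPM table per sex was deposited by the authors. A DESeq2 table per sex, also deposited by the authors, holds per the file headers a mean normalized count (a signal averaged over 6 libraries), a log2 fold change with its SE, the test statistic (a score) and a p-value before and after adjustment. The direction of that fold change is not named in the file. For called genes it was opposite to the TPM difference, low minus high extinction, in 101 of 101 cases in males and 133 of 134 in females, so the deposited log2 values were multiplied by -1.

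Mouse names in the titles tied columns to samples, and replicate numbers, given in record order, pair nothing. No pair of libraries was identical. On log2(TPM + 1), every gene averaging 1 TPM or more entered limma 3.58.1 (R 4.3.3), using its mean-variance trend and adjusting p-values by Benjamini-Hochberg over all genes at 0.05. Each sex was fitted alone, while the average and the difference between the sexes used all 12 libraries. This fit was first tested on simulated data. Exact permutation tests (Python 3.11.15, scipy 1.17.1, statsmodels 0.14.6) exchanged labels within sex. Matplotlib 3.10.9 drew the figures. Depth per library is unknown, because TPM keeps no record of it. Coordinates come from GENCODE M21 (GRCm38). The receptors, gene lists and tests were chosen with earlier results of these data known. Named genes were the 6 receptors, listed genes called by any test, the 2 genes per list with the largest average change in either direction, and the 3 genes most like each receptor among those at 5 TPM or more. A listed gene that this rule takes is not reported here. The alternatives varied the pseudocount, the filter, the scaling and the variance model, or fitted the sexes jointly, left out ribosomal RNA-derived genes or each library, or took the authors' DESeq2 values. Averaging and subtracting the authors' fold changes of the 2 sexes, with normal p-values from the combined SE, was chosen after seeing the data.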

Additional observations from a re-analysis of the deposited data

Results flagged for a closer look

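Grm8 was singled out because its change from high to low extinction differed between the sexes by the single-gene exact test. A p under 0.05 in that test was reached by 7.45% of all genes. Each sex has its own deposited TPM table, so sex and table cannot be told apart. The male change minus the female change was -0.50 on the log2 scale (two-sided exact permutation p = 0.025), from a lower level at low extinction in 3 of 3 males and a higher one in 2 of 3 females. After adjustment over all 18499 genes it did not pass (limma adjusted p = 0.536), and it was the receptor with the fewest normalized counts. Groups of 3 are too small for the check on single outlying samples.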

How the results depend on the processing

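No paired analysis was possible because the replicate numbers were given in record order and tie no mouse of one group to a mouse of another. Over 24 tested values of the 6 receptors, 467 alternative values were computed, of which 0 passed an adjusted p of 0.05 and 47 had the opposite sign, 28 of them with 1 library left out. For 8 of the 24, the 4 of Grm8 among them, no alternative changed the sign. The Grm8 difference between the sexes ran from -0.59 to -0.44 with 1 library left out (unadjusted p 0.0037 to 0.0292). Otherwise it ran from -0.59 to -0.38 (unadjusted p 0.00799 to 0.0467), the weakest with quantile normalisation. The Grm8 change in males ran from -0.41 to -0.26, with unadjusted p from 0.0216 to 0.131, when a library was left out. In females it ran from 0.13 to 0.28 (unadjusted p 0.0300 to 0.325), and from 0.084 with quantile normalisation to 0.21 otherwise. The cause of the other shifts was not tested. Genes called by limma numbered 0 in males but 1 in a joint fit and 2 without ribosomal RNA-derived genes, against 101 in the authors' table. In females limma called 2, but 0 in the joint fit, 4 at 5 TPM or more and 1 with no filter, against 134 in the authors' table, where 4 rather than 0 pathway genes were called. The average gave 0, against 165 from the combined authors' fold changes, and the difference between the sexes 1, but 2 without the variance trend, 2 with no filter and 64 from the combined authors' fold changes. With 1 library left out the counts were 2 to 6 in males, the most without replicate 1 of high extinction, 4 to 10 in females, the most without replicate 2 of high extinction, 0 to 3 on average and 1 to 4 for the difference. Without ribosomal RNA-derived genes, Grm2 averaged 28.8, Grm3 43.1, Grm5 133.9 and Grm7 48.6 TPM, in an unchanged order. Signs turned with sample weights for Grm4 (-0.049) and Grm5 (0.0079) in males, Grm2 in females (0.028) and Grm5 on average (0.024). They turned in the authors' tables for Grm4 (-0.068) and Grm7 (0.068) in males and Grm3 in females (-0.062), and in the combined fold changes for Grm2 (-0.016), Grm4 (-0.020), Grm5 (0.0014) and Grm7 (0.084) on average. Median-of-ratios scaling turned Grm3 (-0.052) and Grm5 (-0.0098) in females and the sex difference of Grm3 (0.0016) and Grm4 (0.032). Quantile normalisation turned Grm3 (-0.029) and Grm4 (-0.020) in females and the sex difference of Grm4 (0.064), and leaving out ribosomal RNA-derived genes turned Grm3 in females (-0.030). With 1 library left out, male changes ran from -0.12 to 0.0081 for Grm3, -0.15 to 0.17 for Grm4 and -0.21 to 0.045 for Grm5. Female changes ran from -0.11 to 0.11 for Grm2, -0.034 to 0.074 for Grm3 and -0.015 to 0.14 for Grm4. Averages ran from -0.0050 to 0.11 for Grm2, -0.055 to 0.011 for Grm3, -0.042 to 0.12 for Grm4, -0.075 to 0.051 for Grm5 and -0.046 to 0.022 for Grm7. Sex differences ran from -0.0072 to 0.22 for Grm2, -0.15 to -0.0061 for Grm3 (the latter without replicate 2 of the high-extinction males), -0.21 to 0.11 for Grm4, -0.27 to -0.012 for Grm5 (without replicates 2 and 3 of the high-extinction males in turn) and -0.26 to -0.13 for Grm7 (the latter without replicate 3 of the high-extinction males). The authors' values could not be recomputed without a library, and unknown read depth per library limits what can be said of Grm4 and Grm8, the lowest of the 6. In the authors' tables Grm4 rested on means of 605 normalized counts in males and 799 in females, and Grm8 on 320 and 420.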
